A study of Drosophila melanogaster with 10 samples.

Results

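The dosage compensation genes of Drosophila melanogaster described here are the roX1 and roX2 RNAs, the protein genes msl-1, msl-2, msl-3, mle and mof, and Sxl, which are 8 of the 14210 genes in the deposited tables. They were selected by gene symbol with their levels in these same replicates already known, and were picked to ask whether the sorted pools held different mixes of male and female cells. Every value of the 8 genes is therefore a description, and no test of them was made here. All 8 passed a filter of a mean of at least 1 FPKM (fragments scaled to transcript length and to library size), which 6992 genes passed, and all 8 had the status OK in each of the 10 libraries.

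The cells were neuroblasts, which are stem cells of the fly nervous system, gated from central brains for large size and strong membrane GFP. In the first group, inscuteable-Gal4, a driver active in neuroblasts, expressed med27 RNAi together with UAS-CD8::GFP, and brains came from pupae of 0 to 2 h. Its control, wild-type pupae of the same age, carried the same driver and GFP in a background with the empty landing site VIE-260B in place of the RNAi construct. The remaining group was late larvae of the last instar with that control genotype. All animals came from 24 h of egg laying and were kept at 29 °C, for 6 days in the case of pupae and 5 days for larvae. Each group had 2 replicates (n = 2). Pupal replicates were sequenced in 2 technical runs, which were averaged. The labels name neither separate animals nor cultures for the replicates, so spreads and p-values cover the difference between these samples, which may be technical. The labels give no sex for any pool.

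Drosophila males have a single X chromosome and females a pair. In males the MSL complex, built of the MSL1, MSL2, MSL3, MLE and MOF proteins and of a roX RNA, coats the X and raises the transcription of its genes. In females the RNA-binding protein Sex-lethal, the product of Sxl, blocks the splicing and translation of msl-2 RNA, and without MSL2 the complex does not form. Accumulation of the roX RNAs in later stages of the fly is known mainly from males.

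The targeted gene MED27, a subunit of the Mediator complex, stood at 5.33 and 3.99 FPKM in med27 RNAi pupae, against 31.5 and 27.4 FPKM in wild-type pupae. All 7 neuroblast markers passed the filter, with summed levels of 1495 to 1530 FPKM in med27 RNAi pupae, 1683 to 1701 in wild-type pupae and 1360 to 1430 in larvae. Of 6 neuron markers, 4 passed, and the list summed to 49.8 to 55.2 FPKM in med27 RNAi pupae, 52.0 to 89.3 in wild-type pupae and 15.7 to 18.4 in larvae. Glial markers summed to 150.3 to 151.0, 183.9 to 188.2 and 160.2 to 193.2 FPKM in the same order of groups, with repo, moody and alrm under 1 FPKM. The lower sum in med27 RNAi pupae lay in Eaat1, at 18.6 and 18.7 FPKM there against 61.1 and 71.5 in wild-type pupae. The glial marker nrv2 went the other way, at 131 and 129 FPKM in med27 RNAi pupae against 121 and 114 in wild-type pupae. By limma, described with the gene lists, 2 of the 7 neuroblast markers fell between med27 RNAi and wild-type pupae. So did Eaat1, 1 of the 3 glial markers above the filter. Over all genes above the filter, 8.64% fell there. Between wild-type pupae and larvae, 4 of 4 neuron markers and 3 of 7 neuroblast markers rose, where 22.7% of all genes did. The 4 haemocyte markers stayed under 0.55 FPKM in sum in every replicate, and the fat body list summed to 1.32 to 1.91 FPKM in med27 RNAi pupae, 1.84 to 2.16 in wild-type pupae and 2.14 to 2.20 in larvae, with Lsp1alpha at 0 and Lsp1gamma, the single one to pass the filter, at 1.18 to 2.20. Libraries also differed in how level went with transcript length: per doubling of length, log2(FPKM + 1) relative to the mean of all replicates moved by 0.00228 and 0.0410 in med27 RNAi pupae, by 0.0918 and 0.189 in wild-type pupae, and by -0.121 and -0.203 in larvae. Values with this trend removed are given where it matters. Of the markers that rose between wild-type pupae and larvae, Syt1 and grh did not pass with it removed (adjusted p = 0.178 and 0.314 by limma).

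The roX RNAs. roX1 (FBgn0019661, X:3752929-3756720, minus strand), a long noncoding RNA of the MSL complex made from the X, was the highest of the 8 genes. It stood at 391 and 393 FPKM in med27 RNAi pupae, at 689 and 749 FPKM in wild-type pupae and at 676 and 541 FPKM in wild-type larvae. The med27 RNAi replicates were both below all other replicates, and wild-type pupae were both above larvae. Set against wild-type pupae, the mean in med27 RNAi pupae differed by -45.5%, or by -0.87 on the log2(FPKM + 1) scale, on which all differences that follow are given. That places roX1 as the 175th lowest of 6992 genes in that comparison. Leaving out any replicate gave -0.93 to -0.81, and every alternative tried kept it between -1.06 and -0.81. Against larvae the med27 RNAi pupae were lower by a difference of -0.62, or -1.01 with the length trend removed, and by -0.78 to -0.46 on leaving out each replicate. Wild-type pupae exceeded larvae by 0.25, or by 0.41 with quantile normalization, but with the length trend removed the value was -0.17, so the order of these neighbours depends on that step. For roX1 that step used a reference transcript of 4832 bases, which is longer than the span of its deposited coordinates. Counting error was small for this RNA, since the upper confidence bounds of the deposited tables lay 0.788 to 1.27% above the values.

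roX2 (FBgn0019660, X:11473089-11474465, plus strand) is the shorter noncoding RNA of the complex and is known to be largely redundant with roX1 in males. It had 14.9 and 16.7 FPKM in med27 RNAi pupae, 4.74 and 11.0 FPKM in wild-type pupae and 7.28 and 5.97 FPKM in larvae. The med27 RNAi replicates were both above all others, opposite to roX1, while the wild-type pupal replicates lay on either side of the larval ones. The difference between med27 RNAi and wild-type pupae was 1.01, the 130th highest of 6992 genes, with a range of 0.47 to 1.54 on leaving out each replicate. The lower end came from dropping wild-type pupal replicate 1 and the upper end from dropping wild-type pupal replicate 2. Against larvae it was 1.14. The difference between wild-type pupae and larvae was 0.13, and it was -0.40 without wild-type pupal replicate 2, 0.66 without wild-type pupal replicate 1, 0.38 with the length trend removed and 0.02 with quantile normalization. The wild-type pupal replicates differed from each other by 1.07, more than the 0.373 of the widest pair of technical runs. Of the wild-type pupal replicates, the one with more roX2 also had more neuronal RNA. There elav, a neuronal RNA-binding protein gene, stood at 39.5 and 61.8 FPKM in replicates 1 and 2. elav had 36.7 and 43.1 FPKM in med27 RNAi pupae and 15.3 and 11.8 FPKM in larvae. By group mean elav was highest in wild-type pupae and roX2 was highest in med27 RNAi pupae. The part of neuronal RNA in the roX2 values was not tested. Upper confidence bounds for roX2 lay 13.9 to 33.7% above its values.

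**Figure D1:**
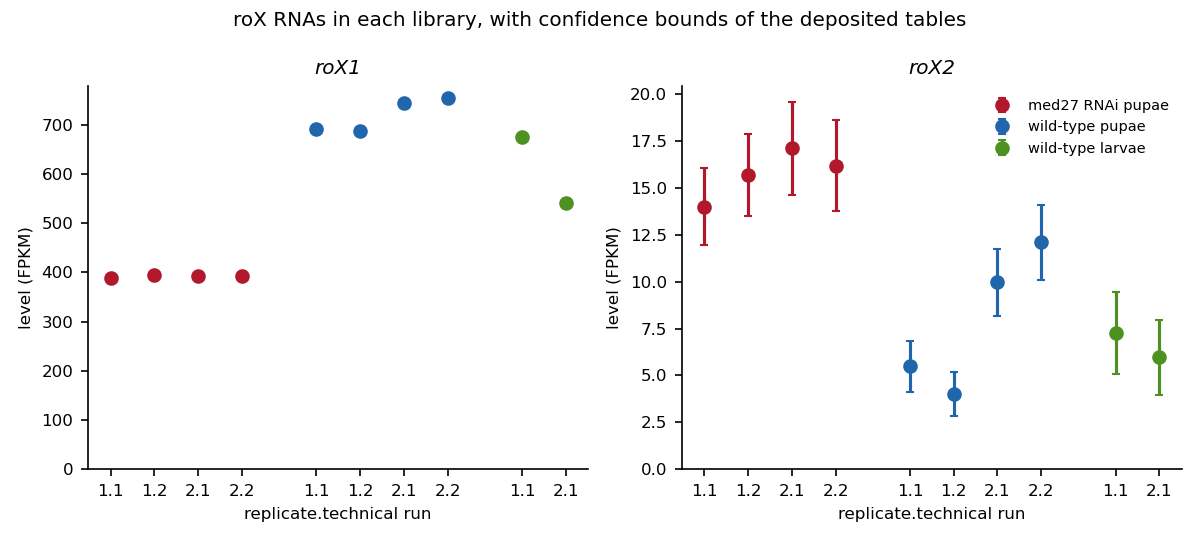
Levels of roX1 (left) and roX2 (right) in FPKM in each of the 10 libraries, with the lower and upper confidence bounds of the deposited tables as bars; the axis gives replicate and technical run, larvae having 1 run each. roX1 bounds are narrower than the points, and roX2 splits the wild-type pupal replicates into 4.74 and 11.0 FPKM on average.

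Because the RNAs differed in opposite directions, their ratio changed more than either. roX1 exceeded roX2 by 26.3 and 23.6 times in med27 RNAi pupae, by 145 and 67.9 times in wild-type pupae and by 92.9 and 90.5 times in larvae. Their sum followed roX1, which made up 95.9 to 99.3% of it, and was 406 and 409 FPKM in med27 RNAi pupae, 694 and 760 in wild-type pupae and 683 and 546 in larvae.

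The MSL protein genes. msl-2 (FBgn0005616, 2L:3462213-3466111, minus strand) encodes the RING finger subunit that is limiting in males and is the target of Sex-lethal. It stood at 26.8 and 27.2 FPKM in med27 RNAi pupae, 20.8 and 20.5 FPKM in wild-type pupae and 17.9 and 16.1 FPKM in larvae. The 3 groups did not overlap, and the med27 RNAi mean was 30.9% above that of wild-type pupae. The difference of 0.37 stayed between 0.30 and 0.39 in every alternative. That between wild-type pupae and larvae was 0.27 and came to -0.01 with the length trend removed.

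msl-1 (FBgn0005617, 2L:18683720-18688796, minus strand) encodes the scaffold that MSL2 binds. It had 41.4 and 44.0 FPKM in med27 RNAi pupae, 40.3 and 42.0 FPKM in wild-type pupae and 27.2 and 23.3 FPKM in larvae. Both pupal groups overlapped and both lay above larvae. Wild-type pupae exceeded larvae by 0.68, or by 0.24 with the length trend removed. The difference of 0.05 between med27 RNAi and wild-type pupae turned to -0.07 with quantile normalization.

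mle (FBgn0002774, 2R:1862243-1868277, minus strand) encodes the RNA helicase that remodels the roX RNAs. Its 43.6 and 43.7 FPKM in med27 RNAi pupae stood above the 37.7 and 40.4 FPKM in wild-type pupae, which stood above the 31.6 and 33.0 FPKM in larvae. The differences were 0.16 between the pupal groups, or 0.03 with quantile normalization, and 0.27 between wild-type pupae and larvae, the second coming to -0.04 with the length trend removed.

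mof (FBgn0014340, X:5767868-5770884, minus strand) encodes the acetyltransferase that modifies histone H4 and also serves in the NSL complex of both sexes. It had 32.0 and 30.8 FPKM in med27 RNAi pupae, 33.9 and 34.7 FPKM in wild-type pupae and 30.5 and 30.3 FPKM in larvae. The med27 RNAi replicates lay below the wild-type pupal ones, by a difference of -0.12, or -0.21 with quantile normalization, and wild-type pupae exceeded larvae by 0.17, or by 0.05 with the length trend removed.

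msl-3 (FBgn0002775, 3L:7116310-7118623, minus strand) encodes the chromodomain subunit that binds methylated chromatin of active genes. It had 25.7 and 23.2 FPKM in med27 RNAi pupae, 26.5 and 26.2 FPKM in wild-type pupae and 24.6 and 30.6 FPKM in larvae. The pupal groups differed by -0.11 without overlap, or by -0.18 with quantile normalization, and the larval replicates lay on either side of the wild-type pupal ones. The gene overlaps form3 by position, which did not reach the filter.

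Summed over the 5 protein genes, levels were 169.6 and 169.0 FPKM in med27 RNAi pupae, 159.3 and 163.8 in wild-type pupae and 131.9 and 133.3 in larvae. The roX RNAs summed to 2.39 and 2.42 times that total in med27 RNAi pupae, 4.35 and 4.64 times in wild-type pupae and 5.18 and 4.10 times in larvae. msl-2 made up 15.8 and 16.1% of the protein gene sum in med27 RNAi pupae, 13.1 and 12.5% in wild-type pupae and 13.6 and 12.1% in larvae.

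Sxl. Sxl (FBgn0264270, X:6969698-6992089, minus strand) is transcribed in both sexes, and only the female splice form gives full protein; the gene-level value sums its isoforms, of which the tables list 25. It had 74.9 and 85.6 FPKM in med27 RNAi pupae, 73.9 and 79.6 FPKM in wild-type pupae and 53.8 and 35.0 FPKM in larvae. The pupal groups overlapped, and both lay above both larval replicates, which themselves differed by 0.61. Wild-type pupae exceeded larvae by 0.81, or by 0.25 with the length trend removed. The 0.06 between the pupal groups came to -0.12 with quantile normalization.

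**Figure D2:**
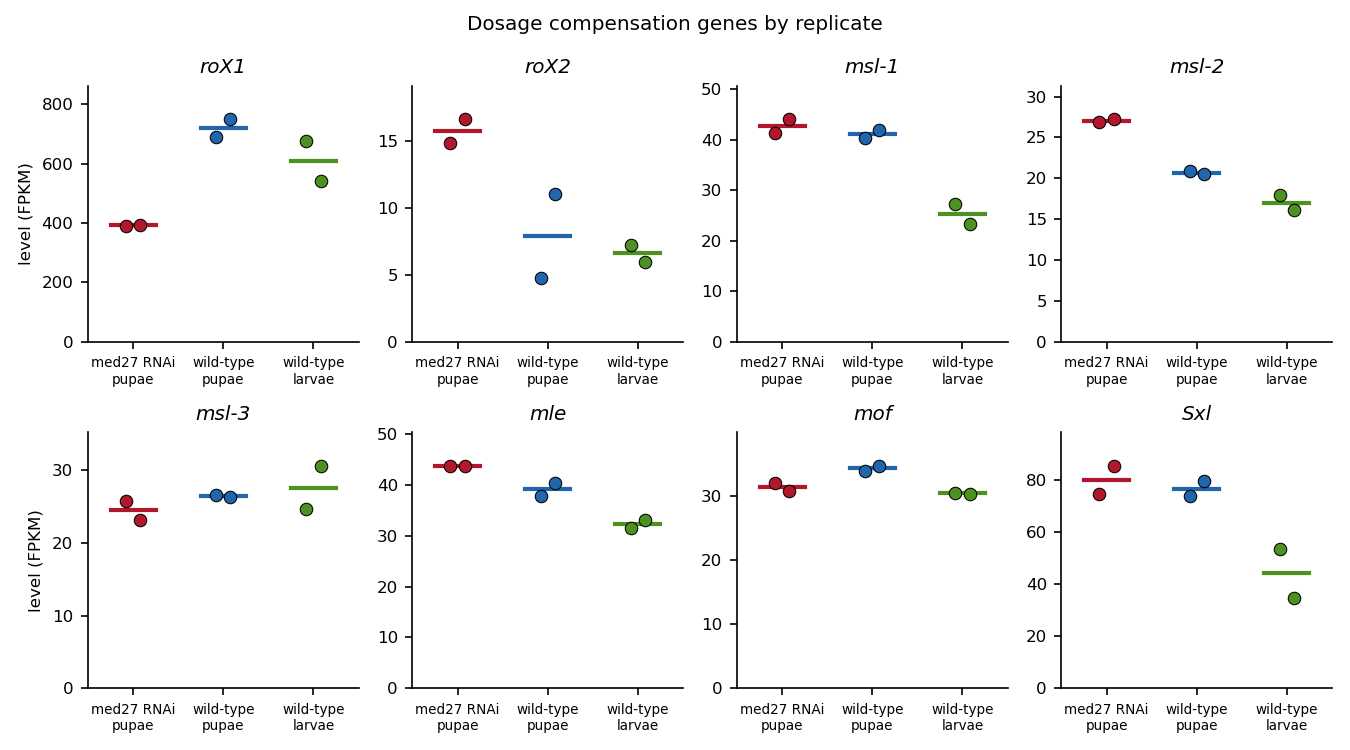
Level of each gene in FPKM, from 0, in the 2 replicates of each group (points, replicate 1 on the left) with the group mean (bar). roX1 is lowest and roX2 and msl-2 are highest in med27 RNAi pupae, while msl-1 and Sxl separate both pupal groups from larvae.

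In order of mean level, med27 RNAi pupae had roX1 at 392 ± 0.925, Sxl at 80.3 ± 7.56, mle at 43.7 ± 0.0670, msl-1 at 42.7 ± 1.85, mof at 31.4 ± 0.843, msl-2 at 27.0 ± 0.259, msl-3 at 24.4 ± 1.81 and roX2 at 15.8 ± 1.27 FPKM (SD, n = 2). The mle level lay between the msl-1 replicates there. In wild-type pupae roX1 averaged 719 ± 42.8 and roX2 7.89 ± 4.46 FPKM, and in larvae 608 ± 95.9 and 6.62 ± 0.926 FPKM (SD, n = 2). roX1, then Sxl, were highest and roX2 was lowest in every group. The authors' deposited table for med27 RNAi against wild-type pupae, which lists 1597 genes with an adjusted p-value below 0.01, holds roX1 (log2 ratio -0.88) and msl-2 (0.41). The authors' deposited table for wild-type pupae against larvae, with 1958 genes, holds msl-1 (0.86) and Sxl (1.12). Both were made from these same libraries, whose values chose the genes, so nothing further is read from these entries.

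Between med27 RNAi and wild-type pupae, 3 of the 8 genes were higher without overlap (roX2, msl-2 and mle), 3 were lower (roX1, msl-3 and mof) and 2 overlapped. Over all 6992 genes 42.7% were higher and 28.7% lower without overlap, and since these values chose the genes nothing is read from the count. The median difference was 0.06 over the 8 genes and 0.05 over all. Between wild-type pupae and larvae, 6 were higher without overlap and 0 lower, where 33.8% and 43.3% of all genes were. The medians were 0.26 over the 8 genes and -0.07 over all. With the length trend removed, roX1 (-0.17), msl-2 (-0.01) and mle (-0.04) of those 6 turned below 0. The others, msl-1, mof and Sxl, came to 0.24, 0.05 and 0.25. Nothing is read from this count either. The comparisons share wild-type pupae. In bulk RNA, fewer cells of a type or sex and less RNA per cell cannot be told apart.

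**Figure D3:**
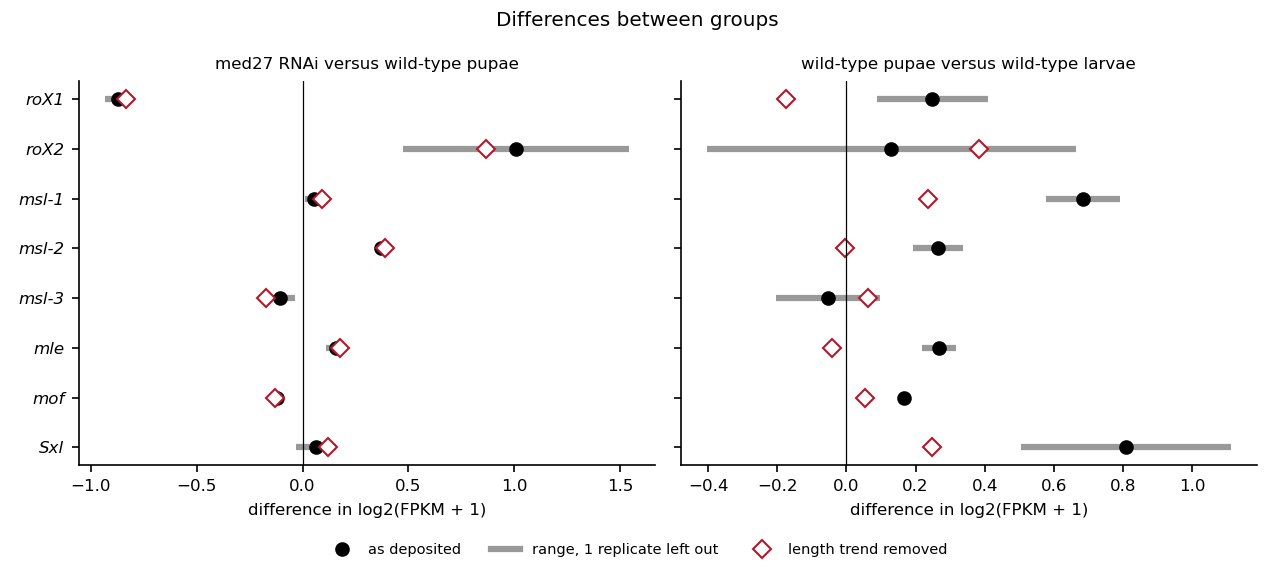
Difference in log2(FPKM + 1) of each gene between groups: circles are values as deposited, grey bars the range on leaving out each replicate, diamonds the value with the length trend removed. roX1 (-0.87) and roX2 (1.01) lie on opposite sides of 0 between pupal groups, and between wild-type pupae and larvae the diamonds of roX1, msl-2, msl-3 and mle lie across 0 from their circles.

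The listed genes of sex-specific tissues and of the Y chromosome were near or at 0. Of the yolk protein genes, made by female fat body and ovary, Yp3 was the highest, at 0.349 and 0.475 FPKM in med27 RNAi pupae, 0.309 and 0.352 in wild-type pupae and 0.441 and 0.323 in larvae. The Y-linked genes kl-2, kl-3, Ory and Pp1-Y1 were listed at 0 on average in every group. The other matched genes of this kind were at 0 in every wild-type replicate. In med27 RNAi pupae kl-5, Ppr-Y and ARY had 0.00665, 0.0197 and 0.0216 FPKM in replicate 2 and 0 in replicate 1. Pp1-Y2 had 0.0349 FPKM in med27 RNAi replicate 1 and 0 in replicate 2. No gene of that list reached 1 FPKM in any replicate, so the sex mix of the pools has no value from them.

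X-linked output. The level of X-linked genes against autosomal ones, a readout that did not choose the genes, was lowest in med27 RNAi pupae. The median log2(FPKM + 1) of 1191 X-linked genes minus that of 5691 genes of chromosome arms 2L, 2R, 3L and 3R, the 8 genes left out, was -0.236 and -0.221 in med27 RNAi pupae, -0.117 and -0.081 in wild-type pupae and -0.134 and -0.167 in larvae. Med27 RNAi replicates lay below every wild-type replicate, and wild-type pupae lay above larvae. The group means differed by -0.13 between med27 RNAi and wild-type pupae, by -0.08 between med27 RNAi pupae and larvae and by 0.05 between wild-type pupae and larvae. With 2 against 2 replicates the exact two-sided permutation test gave p = 0.333 for each, the smallest it can give. Leaving out each replicate kept the first difference between -0.15 and -0.11. It was 0.02 when genes under the filter were kept, and that between wild-type pupae and larvae was -0.04 with the length trend removed.

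Gene by gene, the median difference between med27 RNAi and wild-type pupae was -0.04 on the X and 0.06 to 0.08 on the 4 large autosome arms. By limma, a linear model test with Benjamini-Hochberg adjustment at 0.05, 13.8% of X-linked genes rose and 12.4% fell, while 19.5 to 22.6% of genes rose and 6.59 to 8.92% fell on these arms. Chromosome 4, with 64 genes, stood beside the X, with a median of -0.03, 10.9% of genes higher and 12.5% lower by that test. With the length trend removed the X median was -0.09 and that of chromosome 4 -0.05, against -0.01 to 0.01 on the arms. The balance of calls moved with that step: 9.82% of X-linked genes rose and 17.4% fell, against 14.0 to 16.5% that rose and 11.2 to 13.7% that fell on the arms. Quantile normalization gave 9.91% and 16.1% on the X, against 12.6% and 11.2% over all genes, and median scaling 10.7% and 17.1% on the X, against 15.1 to 17.2% and 8.73 to 11.0%. With genes split into 3 equal parts by transcript length, the median on the X minus that on the autosomes was -0.05, -0.09 and -0.11, shortest part first. Split by mean level, it was -0.11, -0.12 and -0.12, lowest part first. In the authors' deposited table, 185 of 276 X-linked genes (67.0%) were lower in med27 RNAi pupae, and the share was 43.9 to 45.7% on the 4 large autosome arms and 84.2% on chromosome 4, with 16 of 19 genes. Genes of a chromosome are not replicates, and no test of these shares was made.

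**Figure D4:**
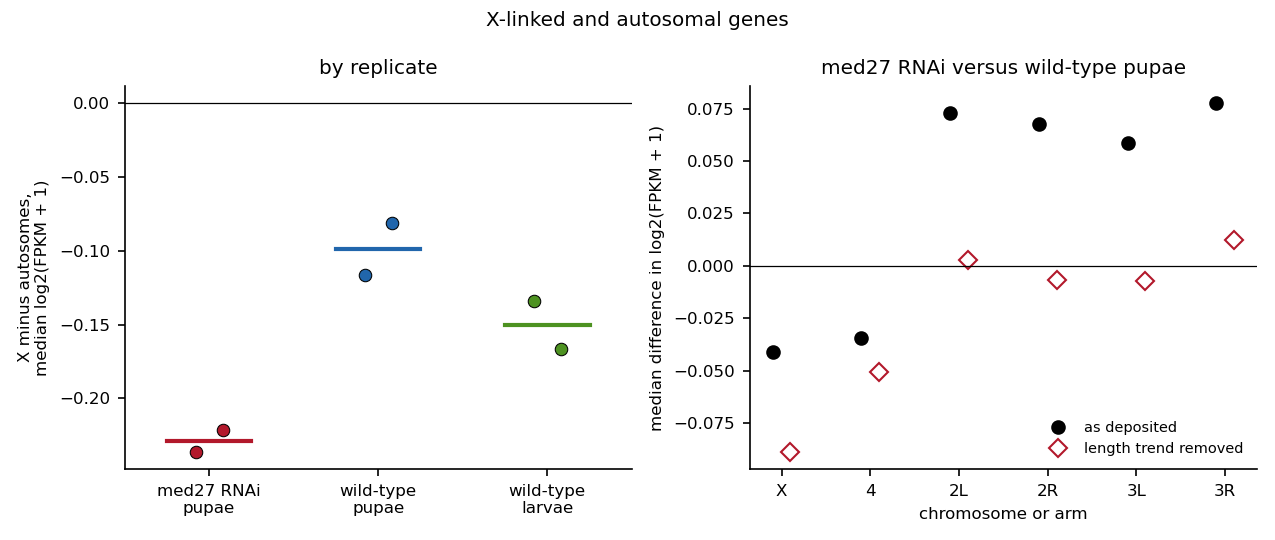
Left, median log2(FPKM + 1) of X-linked minus autosomal genes in each replicate (points) with the group mean (bar); right, median difference between med27 RNAi and wild-type pupae by chromosome or arm, as deposited (circles) and with the length trend removed (diamonds). Med27 RNAi replicates lie at -0.236 and -0.221, below the wild-type ones, and on the right the X and chromosome 4 have the lowest medians in both settings.

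Partner and sex determination genes. The 4 lists, chosen with earlier results of these data known, gave 50 genes, of which 45 passed the filter. Between med27 RNAi and wild-type pupae 3 of the 45 rose and 8 fell by limma, where 19.6% of all genes rose and 8.64% fell; the median was -0.08 over the lists and 0.05 over all genes. Between wild-type pupae and larvae 20 rose and 7 fell, where 22.7% and 26.5% of all genes did. Between med27 RNAi pupae and larvae 22 rose and 5 fell, where 27.8% and 19.5% of all genes did. Between pupal groups the counts rested on the replicates. The 8 that fell became 0 without med27 RNAi replicate 1 (7 at an unadjusted p below 0.05 by limma), 1 without med27 RNAi replicate 2, 5 without wild-type pupal replicate 1 and 0 without wild-type pupal replicate 2 (5 at an unadjusted p below 0.05), and the 3 that rose became 1 in each of these. Of the 11 genes called there, snf passed in every alternative and the other 10 did not. Between wild-type pupae and larvae the 7 that fell became 3 without wild-type pupal replicate 1, 1 without wild-type pupal replicate 2 and 2 without larval replicate 2. With the length trend removed, 12 rose and 4 fell between wild-type pupae and larvae, where 13.8% and 15.9% of genes other than the 8 did. Between med27 RNAi pupae and larvae 11 of the 45 then rose and 9 fell, where 22.0% and 22.5% of genes other than the 8 did.

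**Figure D5:**
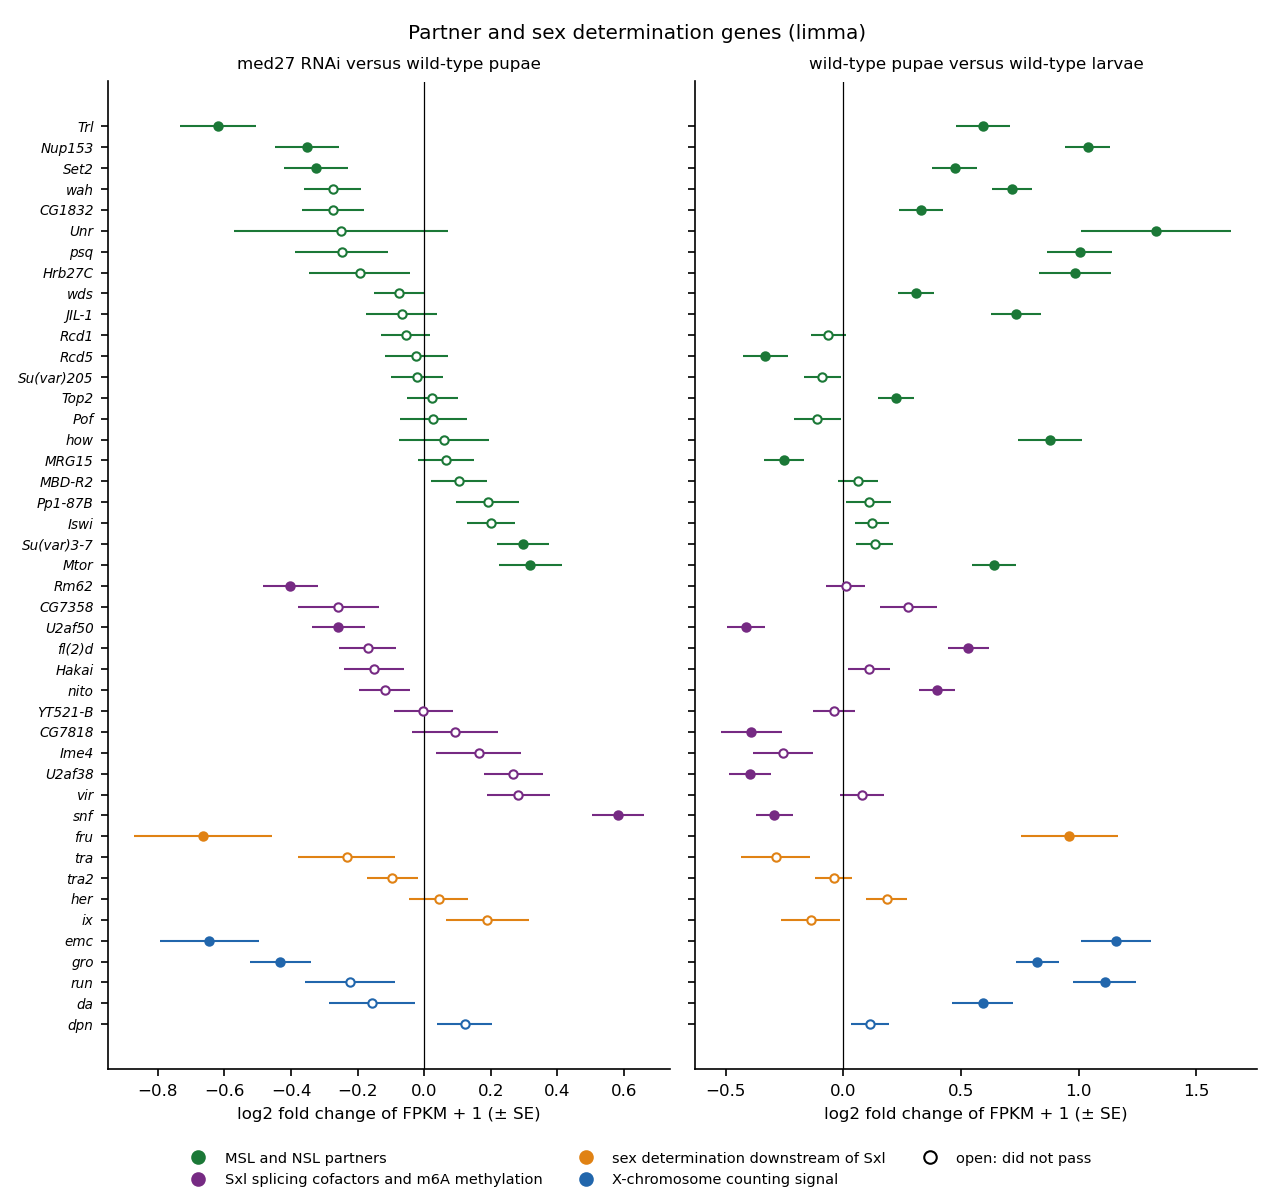
Log2 fold change of FPKM + 1 with its SE from limma for the listed genes above the filter, 1 of them not drawn, between med27 RNAi and wild-type pupae (left) and between wild-type pupae and larvae (right), colored by list, filled where adjusted p was below 0.05. On the left snf (0.58) lies farthest right of the filled points, and on the right Unr (1.33) does.

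All 22 partners of the MSL complex and of the related NSL complex passed the filter. Between med27 RNAi and wild-type pupae 2 rose and 3 fell, and the median of the list was -0.04. Trl, the GAGA factor that binds GA repeats, fell to 33.6 ± 2.29 FPKM in med27 RNAi pupae, against 52.2 ± 3.67 in wild-type pupae (SD, n = 2; log2 fold change -0.62, SE 0.11, adjusted p = 0.00807 by limma). The nuclear pore gene Nup153 (-0.35, adjusted p = 0.0332) and the histone methyltransferase gene Set2 (-0.32, adjusted p = 0.041) fell as well, and Set2 did not pass with the length trend removed. The pore basket gene Mtor (0.32, adjusted p = 0.043) and the heterochromatin gene Su(var)3-7 (0.30, adjusted p = 0.0295) rose, and neither passed with quantile normalization. CLAMP, the zinc finger protein that brings the complex to the X, listed as CG1832, did not pass (-0.27, adjusted p = 0.0647), at 54.1 ± 3.39 FPKM in med27 RNAi pupae and 65.5 ± 1.34 in wild-type pupae.

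Between wild-type pupae and larvae 13 partners rose and 2 fell, with a median of 0.32. The largest were Unr (1.33, adjusted p = 0.0133 by limma), which represses msl-2 translation with Sex-lethal in females and helps the roX RNAs in males, Nup153 (1.04, adjusted p = 0.00131), the GA-binding factor gene psq (1.01, adjusted p = 0.00213), and the RNA-binding protein genes Hrb27C (0.99, adjusted p = 0.00285) and how (0.88, adjusted p = 0.00278). Unr stood at 95.5 and 92.8 FPKM in wild-type pupae and 52.2 and 25.9 in larvae. With the length trend removed Unr and Hrb27C did not pass, nor did CLAMP, JIL-1, wah, Trl, Set2 (-0.24) or Mtor (-0.09) of the 13. The 2 that fell, Rcd5 and MRG15, did not pass then either. Between med27 RNAi pupae and larvae 13 partners rose and 1 fell, with a median of 0.27, led by Unr (1.08, adjusted p = 0.0284), Mtor (0.96, adjusted p = 0.000645), how (0.94, adjusted p = 0.00183), Hrb27C (0.79, adjusted p = 0.00552) and psq (0.76, adjusted p = 0.00459). With the length trend removed Unr (0.36), Hrb27C (0.11) and psq (0.22) did not pass, and Mtor came to 0.31. Nor did Nup153 (0.02), Su(var)3-7 (0.02), Iswi, JIL-1 or wah of the 13 pass then. Genes whose ID was not matched to an annotated length, how, Top2 and da among them, carry no such correction.

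The second list holds 12 genes that act with Sex-lethal in splicing or in the m6A methylation of RNA, all of which passed the filter. Of these 1 rose and 2 fell between med27 RNAi and wild-type pupae, and 2 rose and 4 fell between wild-type pupae and larvae, with medians of -0.06 and -0.01. snf, the spliceosomal protein that Sex-lethal works with on its own transcript, rose to 255 and 267 FPKM in med27 RNAi pupae, against 171 and 177 in wild-type pupae (log2 fold change 0.58, SE 0.079, adjusted p = 0.00297 by limma), and it passed in every alternative, with 0.30 once the length trend was removed. Its larval levels were 204 and 224 FPKM. The RNA helicase gene Rm62 (-0.40, adjusted p = 0.0118) and the splicing factor gene U2af50 (-0.26, adjusted p = 0.048) fell between the pupal groups. Between wild-type pupae and larvae fl(2)d (0.53, adjusted p = 0.00338) and nito (0.40, adjusted p = 0.00612) of the methylation complex rose, while the splicing factor genes U2af50 (-0.41, adjusted p = 0.00581) and U2af38 (-0.40, adjusted p = 0.010) and CG7818, the Mettl14 gene (-0.39, adjusted p = 0.0398), fell along with snf (-0.29, adjusted p = 0.0197). With the length trend removed fl(2)d alone of these passed, and snf came to 0.08. The largest differences between med27 RNAi pupae and larvae were those of U2af50 (-0.67, adjusted p = 0.000995), Rm62 (-0.39, adjusted p = 0.0075), vir (0.36, adjusted p = 0.0178), fl(2)d (0.36, adjusted p = 0.0129) and snf (0.29, adjusted p = 0.021). Here, with the length trend removed, vir came to -0.13 and did not pass and Rm62 came to -0.72, and snf did not pass with median scaling. Leaving out med27 RNAi replicate 2 ended the calls of Rm62, vir, fl(2)d and snf, and leaving out med27 RNAi replicate 1 those of vir, fl(2)d and snf, while without larval replicate 1 vir and snf did not pass.

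Downstream of Sex-lethal, 6 of 8 genes passed the filter, dsx and dsf being under 1 FPKM on average, and the median was -0.09 both between the pupal groups and between wild-type pupae and larvae. tra, whose RNA Sex-lethal splices, had 8.90 FPKM in med27 RNAi pupae, 10.5 in wild-type pupae and 13.1 in larvae on average. It passed between med27 RNAi pupae and larvae and in neither other comparison (-0.52, adjusted p = 0.0234 by limma). That tra call was lost with no filter and on leaving out med27 RNAi replicate 2 or larval replicate 2. With the length trend removed, tra also passed between med27 RNAi and wild-type pupae (-0.51, adjusted p = 0.0277 by limma). fru, a transcription factor gene with sex-specific splice forms, fell between med27 RNAi and wild-type pupae (-0.67, adjusted p = 0.0498) and rose between wild-type pupae and larvae (0.96, adjusted p = 0.00884). The first fru call was lost with a pseudocount of 0.1, with quantile normalization, with 1 technical run, and on leaving out either med27 RNAi replicate or wild-type pupal replicate 2. The second was lost with the length trend removed (0.18) and without larval replicate 2.

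The X counting signal sets Sxl transcription in the early embryo, and its genes have other roles in the nervous system later. Of 8 genes 5 passed the filter, with sisA, sc and os under 1 FPKM. gro, a co-repressor gene (-0.43, adjusted p = 0.0138 by limma), and emc, an inhibitor of helix-loop-helix factors (-0.65, adjusted p = 0.0184), fell between med27 RNAi and wild-type pupae, where the median of the list was -0.22. Between wild-type pupae and larvae emc (1.16, adjusted p = 0.00186), run (1.11, adjusted p = 0.00172), gro (0.82, adjusted p = 0.00157) and da (0.59, adjusted p = 0.00939) rose, with a median of 0.82. All 5 rose between med27 RNAi pupae and larvae, by 0.89 for run, 0.51 for emc, 0.44 for da, 0.39 for gro and 0.23 for dpn, a neuroblast gene (adjusted p = 0.00222, 0.026, 0.0286, 0.0117 and 0.0493 by limma in that order). Of these run passed in every alternative. emc, da and dpn did not with quantile normalization, median scaling or no filter, and gro came to 0.12 with the length trend removed and did not pass. dpn also did not pass with technical run 2 only, the replicate block or no intensity trend. Leaving out med27 RNAi replicate 2 ended the calls of emc, da, dpn and gro. The summed neuron markers were also higher in both pupal groups than in larvae, and their part in these differences was not tested.

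Genes beside the roX genes did not pass the test between med27 RNAi and wild-type pupae. CG11695 and nod, 249 and 385 bases from roX2 by the deposited coordinates, had log2 fold changes of -0.25 (adjusted p = 0.14 by limma) and -0.05 (adjusted p = 0.717) between med27 RNAi and wild-type pupae. VhaAC39-1 and HIP, the nearest genes above the filter around roX1 at 18056 and 57321 bases, had 0.15 (adjusted p = 0.258) and -0.01 (adjusted p = 0.957). CG11695 fell (-0.52, adjusted p = 0.00885) and HIP rose (0.85, adjusted p = 0.00251) between wild-type pupae and larvae. Beside msl-2, Pdsw, 50 bases away, rose between med27 RNAi and wild-type pupae (0.49, adjusted p = 0.0133), which was not so with the length trend removed (adjusted p = 0.22), and sec5 did not pass (-0.07, adjusted p = 0.744). Of the other nearest genes above the filter, CG4593, at 60655 bases from Sxl (0.43, adjusted p = 0.00718), and corn, at 17462 bases from msl-3 (0.40, adjusted p = 0.0197), rose between med27 RNAi and wild-type pupae. With the length trend removed CG4593 had an adjusted p of 0.0532 by limma.

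The genes whose centred log2 profile over the 6 replicates was most like that of a member were found by the root mean square difference, with no test. For roX1 they were Fur2 (0.0585) and CG14435 (0.0811) on the X and Cad96Ca (0.0767) on 3R. For roX2 the nearest were farther off: CG8401 (0.146) on 2R, and CG43737 (0.221) and kdn (0.243) on the X. kdn, the citrate synthase gene, had 188 and 195 FPKM in med27 RNAi pupae, 81.9 and 108 in wild-type pupae and 74.1 and 66.2 in larvae. For msl-2 they were l(3)72Ab (0.0347), Tif-IA (0.0397) and yki (0.0406), and for Sxl chif (0.0261) on 2L and CG32000 (0.0491) and cals (0.0529) on chromosome 4.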

How the data were processed

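RNA of sorted neuroblasts was measured in 10 libraries, selected for polyA and stranded per the labels. For every run there is a Cufflinks gene table in which the authors deposited FPKM with confidence bounds, and there are 2 tables of DESeq comparisons, of which the p-value, the ratio (fold) of base means, its log2 and the base means (a count signal scaled by size factors) are the authors' values per the file headers; these hold genes with adjusted p-values below 0.01, and signs of the RNAi table were turned to RNAi over wild type. Tools in the submitters' processing notes are DESeq 1.8.3, HTSeq, Cufflinks 1.3.0, TopHat 1.4.1 and BWA 0.6.1; a build is not given in the sources. Deposited starts count from 0, since 3495 gene spans equalled those of the reference annotation on that reading and 248 on the other, so 1 was added. Overlapping genes have uncertain values, as use of strand in counting is not given.

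Technical runs were averaged. log2(FPKM + 1) was tested with limma 3.58.1 in R 4.3.3, with an intensity trend and all 3 groups in 1 fit (3 residual and 4.28 prior degrees of freedom), two-sided, with Benjamini-Hochberg adjustment over the 6992 genes of at least 1 FPKM on average and a threshold of 0.05. The tables used here hold FPKM, not counts, so no count test was run; this scale understates changes of low genes. FPKM sums were 676014 to 814106 a run, and 6806 to 7087 genes reached 1 FPKM. The length trend was fitted on 6659 genes matched by ID to an annotated transcript length. X against autosomes used medians and an exact permutation test (scipy 1.17.1); other steps used Python 3.11.15, pandas 2.3.3 and numpy 2.4.6. The fit was tested on simulated data.

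The genes, lists and tests were chosen with earlier results of these data known. Named genes were all members, the called genes of each list (the 5 of largest change where more passed), nearest neighbours and the 3 closest profiles. Partners are also named where removal of the length trend bears on their call. CLAMP, tra and the neighbours set against roX1 and roX2 without a call are named for their role. CCY, PRY, WDY and FDY were not matched. Of the listed genes, 1 is in the counts but not reported here. Alternatives were another pseudocount, filters, quantile and median scaling, removal of the length trend, single runs, a replicate block, no intensity trend, and leaving out each replicate; means of levels, medians of gene differences and a crossed block were added after seeing the data.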

Additional observations from a re-analysis of the deposited data

How the results depend on the processing

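The 3 genes higher and 8 lower among the listed genes between med27 RNAi and wild-type pupae were 1 and 11 with quantile normalization, 1 and 10 with median scaling, 5 and 10 with the length trend removed, 2 and 3 with no filter, 2 and 5 with no intensity trend, 1 and 4 with the replicate block, and 1 to 4 and 0 to 11 on leaving out each replicate. The 20 higher and 7 lower between wild-type pupae and larvae were 12 and 4 with the length trend removed, 23 and 4 with quantile normalization, 19 and 3 with no filter, 19 and 6 with the replicate block, and 15 to 20 and 1 to 7 on leaving out each replicate. The 22 and 5 between med27 RNAi pupae and larvae were 14 and 9 with quantile normalization, 14 and 8 with median scaling, 11 and 9 with the length trend removed, 18 and 5 with the replicate block, and 7 to 20 and 1 to 7 on leaving out each replicate. Over all genes, the 1373 higher and 604 lower between pupal groups were 879 and 782 with quantile normalization and 996 and 921 with the length trend removed. X minus autosomes reversed to 0.0240 and 0.0775 with no filter for med27 RNAi pupae against wild-type pupae and larvae, and to -0.0365 with the length trend removed for wild-type pupae against larvae. The cause of these shifts was not tested. Equal replicate numbers did not pair the samples (correlations of deviations -0.0256, -0.0572 and -0.104); a crossed replicate block, added after seeing the data, called 23 and 5 between med27 RNAi pupae and larvae. With 2 replicates a group, single low values such as roX2 rest on wide bounds.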

Other observations

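Genes of chromosome 4, whose transcripts are bound by the protein of Pof, were mostly higher in wild-type pupae than in larvae. Of 64 such genes, 41 (64.1%) rose and 5 (7.81%) fell by limma, where 22.7% and 26.5% of all genes did. The median difference in log2(FPKM + 1) was 0.62, against -0.07 over all genes. With the length trend removed 13 (20.3%) rose and 1 (1.56%) fell, where 13.8% and 15.9% of all genes did. The median was then 0.32, against -0.02 over all genes. The authors' deposited table holds 47 genes of this chromosome, of which 45 were higher in wild-type pupae, as were 1379 of 1958 genes in all. Pof itself did not pass between wild-type pupae and larvae.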
